A study of Homo sapiens with 15 samples.

Results

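The comparison set T4 breast cancer cells cultured with AIIB2, an antibody that blocks β1-integrin, against T4 cells cultured with either of 2 blockers of the epidermal growth factor receptor (EGFR). These were 3 of the 15 samples of the study, with 1 sample per agent, and genes were listed where the AIIB2 value lay at least 1 log2 unit, that is 2-fold, outside the values of both blockers. Of 9111 genes that remained once the dimmest 25% had been left out, 126 met this rule (1.38%), 79 higher with AIIB2 (0.867%) and 47 lower (0.516%). All samples came from the HMT3522 human breast epithelial line grown in 3D laminin-rich extracellular matrix, which labels abbreviate as lrECM. The malignant line T4 was given AIIB2, the EGFR kinase inhibitor Tyrphostin AG 1478 or the EGFR antibody mAb225, and the labels call all of these reverted. The other 6 reverted T4 samples received TNF protease inhibitor-2, the MEK inhibitor PD98059, dominant-negative Rap1, the metalloproteinase inhibitor GM6001, a second inhibitor directed at MMPs and ADAMs, or the PI3K inhibitor LY294002. T4 with no agent named had 3 samples, and S1, the nonmalignant line of the same series, also had 3. For doses, times and control antibodies the sources used here give nothing, and the design mentions a vehicle without saying which samples received it. S1 and T4 each represent 1 cell lineage, so the values describe this line.

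β1-integrin pairs with a range of alpha subunits into receptors that hold epithelial cells on laminin and collagen and signal through focal adhesion kinases. EGFR is a receptor tyrosine kinase that drives growth through the ERK and PI3K pathways, and in this cell line signalling by each receptor is known to depend on the other in laminin-rich matrix. AIIB2 and EGFR inhibitors are both known to turn disordered T4 colonies into rounded, acinus-like ones. In stratified epithelia, cells that leave the basement membrane stop dividing, exchange basal for suprabasal keratins and build a cornified envelope of cross-linked small proteins.

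The values are deposited log2 expression from U133A-type Affymetrix arrays, held in 2 tables. AIIB2, both EGFR blockers, PD98059, TNF protease inhibitor-2, dominant-negative Rap1 and S1 sample 3 share the second table. The 3 T4 samples, S1 samples 1 and 2 and the other 3 agents are in the first, so T4 levels are set across tables. Sample medians lay between 7.33 and 7.4. Of the epithelial markers, the basal keratins were among the brightest genes, with KRT14 at 14.52 with AIIB2, against 14.42 with the tyrphostin and 14.27 with mAb225, and KRT5 at 14.13, against 14.02 and 13.91. The luminal keratin KRT19 was 6.61 with AIIB2, against 6.64 and 6.67. It was the 1 of 8 epithelial markers on the array under the brightness filter, which uses the mean over all 15 samples. With 1 sample per agent a difference carries no replicate check and no test was made. As a yardstick, the pooled SD of S1 samples 1 and 2 and of T4 samples 1 to 3 within the first table had a median of 0.14 over all genes and of 0.27 over the genes higher with AIIB2 and 0.30 over those lower.

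The 2 EGFR blockers gave almost the same profile. No gene lay at least 1 log2 unit apart between the tyrphostin and mAb225 (0%), the largest difference being 0.97. PD98059, which acts downstream of EGFR, lay at least 1 log2 unit from the tyrphostin in 5 genes and from mAb225 in 2. These 3 libraries were closer to each other than T4 samples 1 and 2, which differed in 6 genes, and than S1 samples 1 and 2, which differed in 16. The labels do not say whether they came from separate cultures, so the values of the 2 blockers may not be independent of each other. AIIB2 was 1 log2 unit or more from the tyrphostin in 144 genes (1.58%) and from mAb225 in 173 (1.9%). It was about as far from PD98059, with 164 genes, and from TNF protease inhibitor-2, with 127, while dominant-negative Rap1 was farther off with 438. The gap of a gene is given below as AIIB2 minus the nearer of the 2 blockers.

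**Figure D1:**
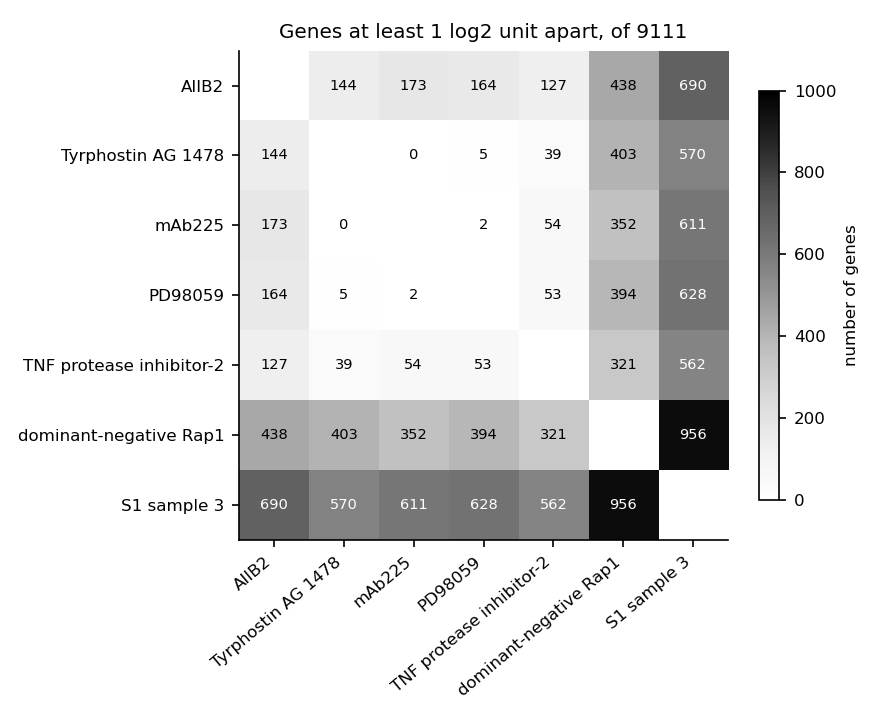
Number of genes, of 9111, at least 1 log2 unit apart between each pair of the 7 samples in the second table. The tyrphostin, mAb225 and PD98059 differ from each other in 0 to 5 genes, whereas AIIB2 differs from them in 144 to 173.

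The genes higher with AIIB2 reached much larger gaps than those lower. Of the 79 higher genes, 12 had a gap of at least 2 log2 units and the largest was 4.78, whereas 1 of the 47 lower genes did, with -2.47. The median gap was 1.30 for the higher and -1.24 for the lower genes, and over all genes the median of AIIB2 minus the mean of the blockers was -0.003. At the threshold, CSTB was the last higher gene inside with 1.01 and PERP the first outside with 0.997. On the lower side TNFAIP3 was inside with -1.0 and TPM1 outside with -0.997. The gap was at least 3 times the gene's pooled SD in 59 higher and 31 lower genes. These genes were picked for a large gap, and no share over all genes was counted. The SD also comes from S1 and T4 samples, not from repeats of an agent, so this ratio is no test of the genes.

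**Figure D2:**
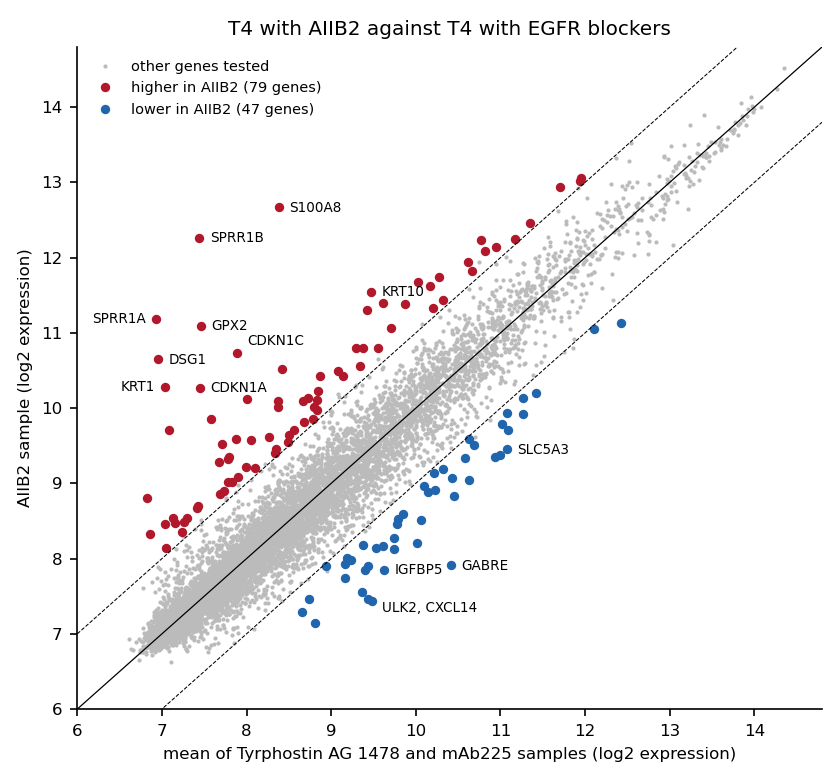
Log2 expression in the AIIB2 sample (vertical axis) against the mean of the Tyrphostin AG 1478 and mAb225 samples (horizontal axis), 1 point per gene. Dashed lines mark 1 log2 unit from equality. The 79 higher genes include SPRR1B, S100A8 and SPRR1A more than 4 log2 units above the blockers, and the 47 lower genes lie closer to the line, with GABRE the farthest.

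The 3 genes with the largest gaps, SPRR1B, S100A8 and SPRR1A, are on the list for the cornified envelope and squamous differentiation. SPRR1B, a small proline-rich protein that transglutaminases cross-link into the cornified envelope, stood at 12.26 with AIIB2, against 7.48 with the tyrphostin and 7.41 with mAb225, a gap of 4.78 or 27.5-fold. The other 6 agents ranged from 6.87 to 7.61 (median 7.29), T4 samples 1 to 3 had 8.49, 9.43 and 7.40, and S1 samples 1 to 3 had 8.03, 7.59 and 6.90. AIIB2 was thus above each of the other 14 samples, while T4 itself spread over about 2 log2 units. Its close relative SPRR1A stood at 11.18 with AIIB2, against 7.04 and 6.83 with the tyrphostin and mAb225. SPRR1A lay between 6.87 and 7.05 with the other agents (median 6.90), at 7.40, 8.17 and 6.98 in T4 and at 7.24, 7.20 and 6.91 in S1. The SPRR1A probe set is of a kind that can match related transcripts, so its separation from SPRR1B is uncertain, although a second SPRR1A probe set was also more than 1 log2 unit above both blockers. Outside AIIB2 and T4 the SPRR1A values were near the sample medians, where the arrays give no detection call here.

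The 2 SPRR1 genes lie near each other on chromosome 1, and their promoters are shown because both genes were among the 3 with the largest gaps. The RefSeq sequences run 5′ to 3′ on the plus strand of GRCh38.p14, from 250 bases before the gene start to 50 after it, for SPRR1B at chr1:153030953-153031252 and for SPRR1A at chr1:152983831-152984130. Capitals mark matches to TGANTCA, a pattern with any base in the middle that includes the core recognised by AP-1 factors such as FOS. The pattern reads the same on both strands.
SPRR1B: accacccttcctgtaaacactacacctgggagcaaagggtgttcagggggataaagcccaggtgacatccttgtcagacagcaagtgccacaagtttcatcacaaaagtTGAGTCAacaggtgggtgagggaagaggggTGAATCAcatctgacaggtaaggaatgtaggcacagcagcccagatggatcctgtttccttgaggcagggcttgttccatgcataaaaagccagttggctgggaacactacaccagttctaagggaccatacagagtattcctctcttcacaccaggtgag
SPRR1A: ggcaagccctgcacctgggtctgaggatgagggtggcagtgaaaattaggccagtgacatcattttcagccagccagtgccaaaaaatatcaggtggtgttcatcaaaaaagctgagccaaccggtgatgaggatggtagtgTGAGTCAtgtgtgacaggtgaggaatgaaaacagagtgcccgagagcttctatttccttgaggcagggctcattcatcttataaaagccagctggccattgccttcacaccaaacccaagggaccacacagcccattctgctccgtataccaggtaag
SPRR1B holds 2 matches, whose first bases are 141 and 111 bases before the gene start, and SPRR1A holds 1, at 108. The same pattern occurred in 9.37% of the 27305 RefSeq genes with a promoter window of this length. It was in 4 of the 61 higher genes with a window (6.56%) and in 4 of the 32 lower ones (12.5%). The other higher genes with the pattern were SERPINB5 and INAVA, and INAVA is named here because it completes the count. As a group the higher genes thus did not hold the pattern more often than RefSeq genes in general.

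S100A8, a calcium-binding protein that forms calprotectin with S100A9 in stressed epithelium and in myeloid cells, stood at 12.67 with AIIB2, against 8.37 with the tyrphostin and 8.40 with mAb225. It ranged from 7.27 with LY294002 to 11.87 with dominant-negative Rap1 among the other agents (median 9.31), and was 9.49, 9.58 and 9.86 in T4 and 8.19, 8.70 and 8.27 in S1. Dominant-negative Rap1 therefore also carried a high level, less than 1 log2 unit below AIIB2. S100A9, which missed the threshold with a gap of 0.91, was on the same side. A second S100A8 probe set lay on the same side without reaching 1 log2 unit, and the mean over both gave a gap of 2.59. Among leukocyte markers none of the 5 above the filter met the rule. The mean of all 9 on the array was 7.49 with AIIB2, against 7.38 with the tyrphostin and 7.36 with mAb225. The means of 7.16 to 8.22 for the other agents cover only the 5 above the filter, so they are not comparable with these. The defining markers PTPRC and CD14 stood at 6.98 and 7.63 with AIIB2, against 6.95 and 7.61 with the tyrphostin and 6.85 and 7.61 with mAb225, and the part of such cells in the S100A8 value was not tested.

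Of the 27 genes listed for the cornified envelope and squamous differentiation, 17 were measured above the filter, and 6 of them were higher with AIIB2 and 0 lower. The background was 0.867% of genes higher. Of the 26 listed genes on the array, 9 were under the filter. That filter averages all 15 samples, AIIB2 included, so a dim gene raised with AIIB2 passed it more easily. The share of 6 of 17 and the median below may therefore be too high. The median difference between AIIB2 and the mean of the blockers was 0.89 over the 17, against -0.003 over all genes. Besides SPRR1B, S100A8 and SPRR1A, the 6 were the kallikrein protease KLK10, the secreted protease inhibitor SLPI and the cystatin CSTB. KLK10 had 8.33 with AIIB2, against 6.83 with the tyrphostin and 6.90 with mAb225, and it ranged from 6.76 to 7.06 with the other agents. In T4 it lay at 7.01, 6.92 and 7.0 and in S1 at 6.94, 6.81 and 6.90, so AIIB2 was the sole high sample; the mean over both KLK10 probe sets gave a gap of 0.78. Just short of the threshold were CSTA, another cystatin, with a gap of 0.95, and TGM1, the transglutaminase that assembles the envelope, with 0.87. PPL, the envelope scaffold periplakin, went the other way with -0.86. Involucrin (IVL) was under the filter and had 0.10.

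DSG1, the desmosomal cadherin of the upper epidermal layers, stood at 10.65 with AIIB2, against 6.86 with the tyrphostin and 7.06 with mAb225. It ranged from 6.84 to 7.22 in the other agents (median 6.91), and was 6.75, 6.95 and 6.90 in T4 and 6.80, 6.86 and 6.61 in S1. KRT1, the type II keratin of differentiating epidermis, stood at 10.28 with AIIB2, against 6.99 and 7.09 with the tyrphostin and mAb225. KRT1 was between 6.84 and 7.54 with the other agents (median 6.96), at 6.84, 6.93 and 6.89 in T4 and at 6.99, 6.98 and 7.20 in S1. For both genes the other 14 samples lay within 1 log2 unit of each other near the sample medians, and AIIB2 stood alone.

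KRT10, the partner of KRT1 in suprabasal filaments, behaved differently across the lines. It was 11.54 with AIIB2, against 9.50 with the tyrphostin and 9.45 with mAb225, and 9.40 to 10.30 with the other agents (median 9.90). T4 had 9.82, 9.75 and 9.69, while S1 had 13.18, 13.44 and 12.79, so that AIIB2 lay above every T4 sample and below every S1 sample. Both other KRT10 probe sets were also past 1 log2 unit. KRT16, a keratin of stressed and proliferating epidermis, was 12.94 with AIIB2, against 11.70 and 11.72 with the blockers. In T4 it was 8.13, 8.92 and 8.05, and in S1 12.16, 12.72 and 7.76, so the 2 blockers were already well above T4. DSC2, a desmocollin encoded near DSG1 on chromosome 18, was 8.86 with AIIB2, against 7.63 with the tyrphostin and 7.76 with mAb225, and the mean of its probe sets gave a gap of 0.91. CLDN1, a claudin of tight junctions, was 10.51 with AIIB2, against 8.12 and 8.72 with the tyrphostin and mAb225. The 3 T4 samples had 9.43, 10.41 and 9.68 CLDN1, S1 had 7.50, 7.30 and 8.63, and dominant-negative Rap1 exceeded AIIB2 with 11.51. Of the 8 keratins on the keratin list that passed the filter, KRT10 and KRT16 were higher with AIIB2 and the other 6 had smaller differences of the same sign, where 0.867% of all genes were higher. KRT1 is not on that list and DSG1 is not on the junction list. Of 22 listed genes for junctions and polarity, 2 were higher and 0 lower, and E-cadherin (CDH1) came close with a gap of 0.94.

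**Figure D3:**
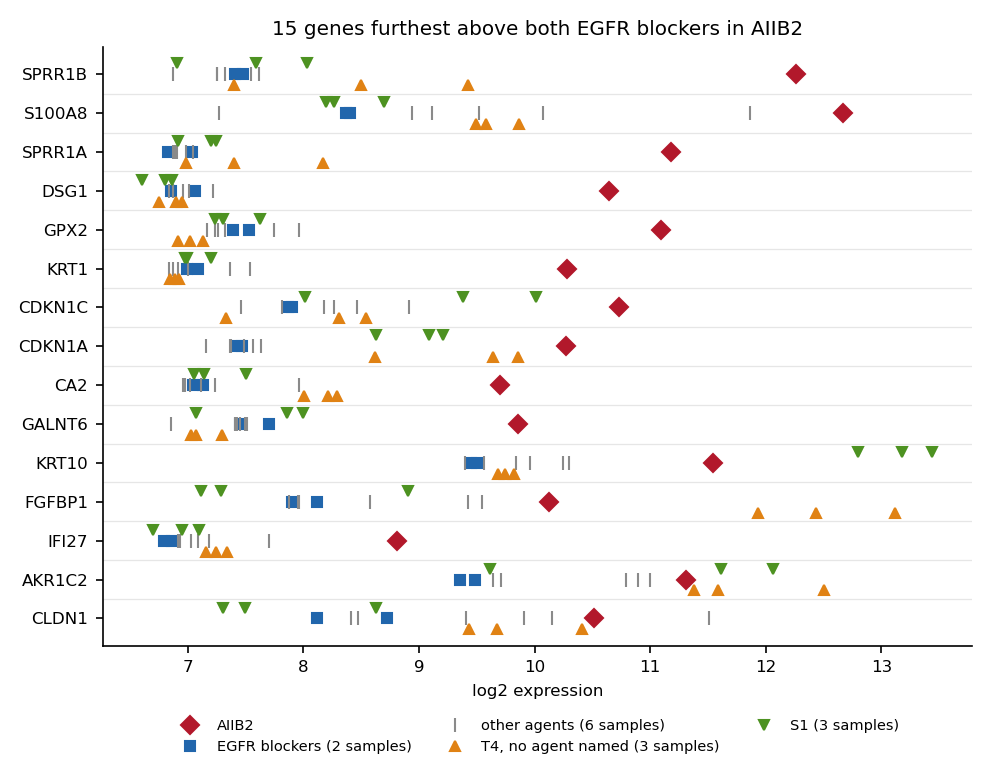
Log2 expression (horizontal axis) of the 15 genes with the largest gap above both EGFR blockers, with AIIB2 as red diamonds, the blockers as blue squares, the other 6 agents as grey ticks, T4 as orange triangles and S1 as green triangles. AIIB2 is the highest sample for SPRR1B, S100A8, SPRR1A, DSG1, GPX2 and KRT1, whereas FGFBP1 is higher in T4 and KRT10 higher in S1.

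Of 16 genes on the list of G1 cyclins and inhibitors of cyclin-dependent kinases, 2 were higher with AIIB2 and 0 lower, where 0.867% of all genes were higher, and both encode inhibitors. CDKN1C, which encodes p57, was 10.73 with AIIB2, against 7.90 with the tyrphostin and 7.87 with mAb225, a gap of 2.83. The other agents had 7.46 to 8.92 (median 8.22), T4 had 8.54, 8.31 and 7.33, and S1 had 9.38, 10.01 and 8.01. The 5 other CDKN1C probe sets were not uniform: 3 were past 1 log2 unit, 4 were on the same side and 1 was on the opposite side, and the mean over all gave 1.49. CDKN1A, which encodes p21, was 10.27 with AIIB2, against 7.42 with the tyrphostin and 7.47 with mAb225, a gap of 2.80. CDKN1A ranged from 7.15 to 7.63 in the other agents (median 7.43), all far under T4 with 9.86, 9.64 and 8.62 and S1 with 9.09, 9.20 and 8.62. AIIB2 was thus the 1 agent of 9 with a CDKN1A level above the T4 samples. CDKN1B, the p27 gene, was on the lower side with a gap of -0.55, and CCND1, the cyclin D1 gene, had 0.33.

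Genes of proliferation did not differ to a like degree between AIIB2 and the blockers. MKI67, a marker of cycling cells, was 9.13 with AIIB2, against 9.34 with the tyrphostin and 9.13 with mAb225, and between 7.49 and 9.62 with the other agents. T4 had 9.63, 9.29 and 10.52 MKI67 and S1 had 8.43, 7.47 and 9.21. None of 27 mitosis genes and none of 26 DNA replication genes met the rule, with median differences of -0.09 and 0.10. Of 17 p53 target genes 2 were higher with AIIB2, where 0.867% of all genes were, namely CDKN1A and TP53I3, a quinone oxidoreductase. TP53I3 was 10.43 with AIIB2, against 8.95 and 8.78 with the tyrphostin and mAb225, and 10.12, 9.83 and 10.84 in T4 and 9.57, 9.33 and 9.34 in S1.

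Of 26 genes on the list of ERK output, which holds early response genes and feedback inhibitors, 4 were higher with AIIB2 than with both EGFR blockers and 0 lower, where 0.867% of all genes were higher and 0.516% lower. The list had 18 genes above both blockers and 3 below both, and a median difference of 0.21. FOS, the AP-1 subunit, was 9.59 with AIIB2, against 7.94 with the tyrphostin and 7.80 with mAb225, and 7.38 to 9.14 with the other agents (median 7.94). T4 had 11.12, 10.20 and 8.06, S1 had 9.22, 8.90 and 7.59, and the spread within T4 was wider than the gap. IER3, an early gene of stress and growth factor responses, was 9.62 with AIIB2, against 8.32 with the tyrphostin and 8.21 with mAb225, and T4 was far above with 12.26, 11.98 and 12.10. Among the other agents IER3 ranged from 7.83 to 8.67 (median 8.04), and in S1 it was 7.74, 7.45 and 7.17. IER2 was 10.42 with AIIB2, against 9.21 and 9.06 with the tyrphostin and mAb225, and 11.54, 11.37 and 10.65 in T4 and 9.11, 9.21 and 9.07 in S1. For IER3 and IER2 AIIB2 lay between the blockers and T4.

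EGR1, a zinc-finger factor induced by growth factors, was 10.56 with AIIB2, against 9.40 with the tyrphostin and 9.29 with mAb225. LY294002 exceeded it with 11.10, the median of the other agents was 8.80, T4 had 11.10, 11.22 and 9.10, and S1 had 8.69, 8.07 and 9.83. The gap of 1.17 compares with a pooled SD of 1.00 for this gene, and the mean over both probe sets gave 0.74. The feedback phosphatase DUSP6 stayed under the threshold with 0.72, the early factor KLF6 with 0.84, and the ERK feedback inhibitor SPRY1 was on the lower side with -0.49. The EGR1 promoter is shown because EGR1 is a standard example of control through serum response factor, which binds CArG boxes. It lies at chr5:138465229-138465528 of GRCh38.p14, plus strand, from RefSeq, with CArG boxes in capitals.
EGR1: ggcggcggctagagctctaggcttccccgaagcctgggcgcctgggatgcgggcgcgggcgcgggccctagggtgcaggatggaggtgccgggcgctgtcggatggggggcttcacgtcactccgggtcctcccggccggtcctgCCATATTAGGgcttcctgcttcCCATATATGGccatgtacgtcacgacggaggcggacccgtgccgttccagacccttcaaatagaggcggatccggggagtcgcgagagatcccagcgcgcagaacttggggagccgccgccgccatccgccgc
The 2 boxes begin 105 and 83 bases before the gene start. A CArG box on either strand was present in 1.6% of all 27305 genes with a window. It was in 3 of 61 higher genes (4.92%), which were EGR1, AQP3 and TPM4, and in 1 of 32 lower genes, NAV2 (3.12%). TPM4, a tropomyosin, was 9.40 with AIIB2, against 8.34 and 8.34 with the tyrphostin and mAb225, and 10.17, 9.80 and 9.92 in T4 and 7.90, 7.82 and 8.55 in S1. It was the 1 gene of 18 actin and SRF targets that met the rule. AQP3, the water and glycerol channel of basal keratinocytes, was 11.39 with AIIB2, against 9.48 and 9.74 with the blockers and 7.98, 8.61 and 7.26 in T4 and 10.64, 10.83 and 7.46 in S1.

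Of 22 genes on the list of NRF2 targets and detoxification, 3 were higher with AIIB2 and 0 lower, where 0.867% of all genes were higher, and the median difference was 0.18. They were AKR1C2, AKR1C1 and NQO1. AKR1C2, a ketosteroid reductase, was 11.31 with AIIB2, against 9.35 with the tyrphostin and 9.49 with mAb225. The other agents had 9.64 to 11.34 AKR1C2 (median 10.85), T4 had 11.59, 11.38 and 12.51, and S1 had 12.07, 11.61 and 9.61. The blockers and PD98059, at 9.71, were low here, along with LY294002 and S1 sample 3, while AIIB2 was just under the T4 samples. AKR1C1, a near-identical neighbour on chromosome 10, was 11.68 with AIIB2, against 10.04 and 10.02, and the probe sets cannot be relied on to separate the pair. NQO1, a quinone reductase, was 11.62 with AIIB2, against 10.42 and 9.93, and the mean of its probe sets gave a gap of 0.87. Other NRF2 targets ran the opposite way, among them the cystine transporter SLC7A11 with -0.70. GPX2, an epithelial glutathione peroxidase not on that list, was 11.09 with AIIB2, against 7.53 with the tyrphostin and 7.39 with mAb225, a gap of 3.56. It was 7.16 to 7.96 in the other agents (median 7.29), 6.91, 7.02 and 7.13 in T4, and 7.24, 7.31 and 7.63 in S1, which left AIIB2 as the single high sample.

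Among the other genes with the 15 largest gaps, 3 encode enzymes or secreted proteins. CA2, a cytosolic carbonic anhydrase, was 9.70 with AIIB2, against 7.05 with the tyrphostin and 7.13 with mAb225, and 8.29, 8.21 and 8.0 in T4 and 7.14, 7.06 and 7.50 in S1. GALNT6, which starts mucin-type O-glycosylation, was 9.86 with AIIB2, against 7.70 and 7.45, and 7.02, 7.07 and 7.30 in T4 and 8.0, 7.86 and 7.07 in S1. FGFBP1, which releases fibroblast growth factors from matrix, was 10.12 with AIIB2, against 8.12 with the tyrphostin and 7.90 with mAb225. T4 had the highest FGFBP1 levels, 11.93, 12.44 and 13.12, S1 had 7.29, 7.11 and 8.91, and the other agents ranged from 7.88 to 9.54 (median 8.27). AIIB2 was the highest of the 9 agents for CA2, GALNT6 and FGFBP1 but stayed at least 1.81 below T4 for FGFBP1.

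Of 24 interferon response genes, 2 were higher with AIIB2 and 0 lower, against 0.867% and 0.516% of all genes, with 15 above both blockers and 9 below both. IFI27 was 8.81 with AIIB2, against 6.79 with the tyrphostin and 6.86 with mAb225, 6.92 to 7.70 with the other agents (median 7.06) and 7.34, 7.24 and 7.15 in T4 and 7.10, 6.95 and 6.70 in S1. OAS1, a sensor of double-stranded RNA, was 9.64 with AIIB2, against 8.43 and 8.58 with the blockers, and dominant-negative Rap1 was level with it at 9.72, while T4 had 8.48, 8.84 and 8.07 and S1 7.47, 7.43 and 7.42. Classical members such as IFIT1 and MX1 were slightly on the lower side, with gaps of -0.14 and -0.18, so the list did not move as a block. RSAD2, under the brightness filter, had a gap of 1.05, and ZNF750, also under it, had 1.14. These were the 2 genes past the threshold that the filter left out, and there were 0 on the lower side.

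Single higher members of other lists lay close to the threshold. ID2, an inhibitor of helix-loop-helix factors, was 10.80 with AIIB2, against 9.63 with the tyrphostin and 9.47 with mAb225, and 8.59, 8.44 and 8.69 in T4 and 10.40, 10.65 and 8.80 in S1. SERPINB5, the serpin maspin, was 11.82 with AIIB2, against 10.55 and 10.77, and 11.61, 11.56 and 11.61 in T4 and 10.97, 11.28 and 10.93 in S1. CA12, a membrane carbonic anhydrase, was 12.24 with AIIB2, against 10.61 and 10.94, and its other probe sets were past 1 log2 unit in 4 of 5 cases, with 11.87, 11.90 and 10.18 in T4 and 12.43, 12.57 and 10.46 in S1. PSAT1, of serine synthesis, was 9.72 with AIIB2, against 8.71 and 8.42, but 10.40 with GM6001 and 10.49 with the second protease inhibitor of the first table. The surface glycoprotein CD24 was 10.11 with AIIB2, against 8.59 and 9.08, with a gap of 0.79 as the mean of its 6 probe sets. SERPINB5 and PSAT1 fell just under the threshold after quantile normalization, with 0.94 and 0.95. DCN, the matrix proteoglycan decorin, was 8.70 with AIIB2, against 7.28 with the tyrphostin and 7.57 with mAb225, and 9.57 with dominant-negative Rap1. It was the 1 of 5 fibroblast markers above the filter that met the rule, the mean of its 4 probe sets gave 0.68, and COL1A1 and COL3A1 had gaps of -0.40 and 0.02. All 9 fibroblast markers on the array averaged 7.47 with AIIB2, against 7.35 and 7.32 with the tyrphostin and mAb225. The means of 7.60 to 8.02 for the other agents cover only the 5 above the filter, so they are not comparable with these. The part of fibroblasts in the DCN value was not tested.

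ST14, the membrane protease matriptase of the epidermal barrier, was 9.57 with AIIB2, against 8.08 with the tyrphostin and 8.01 with mAb225, and 7.44 to 8.25 with the other agents. ST14 was flat elsewhere, at 7.66, 7.72 and 7.72 in T4 and 7.55, 7.60 and 7.59 in S1. CALML3, a calmodulin-like protein of differentiating epithelium, was 9.35 with AIIB2, against 7.74 and 7.85, and 8.67 with PD98059. T4 had less CALML3, 6.84, 7.22 and 6.89, and S1 had 7.68, 8.19 and 7.43. ABCA12, the lipid transporter of lamellar granules, was 8.53 with AIIB2, against 7.28 and 7.31, and S1 sample 3 was above it with 8.82. These 3 genes were on none of the lists and were picked after their values were seen.

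For several genes the EGFR blockers lay under every T4 and S1 sample while AIIB2 did not. The other 6 agents also lay below AIIB2 for RHOB, EPB41L4B, P3H2, CDKN1A and TUBA4A, so low values were not particular to the blockers. RHOB, a GTPase that is also an early response gene, was 9.32 with AIIB2, against 7.80 with the tyrphostin and 7.77 with mAb225. It was 7.84 to 8.55 with the other agents, 9.93, 9.53 and 8.55 in T4 and 10.61, 10.49 and 9.31 in S1. EPB41L4B, a FERM domain protein, was 9.53 with AIIB2, against 7.75 and 7.67, and 7.04 to 8.22 with the other agents. T4 had 9.01, 9.03 and 8.75 EPB41L4B and S1 9.17, 9.24 and 8.55. P3H2, a collagen prolyl hydroxylase, was 9.29 with AIIB2, against 7.63 and 7.71, with 7.48 to 7.75 for the other agents, 9.81, 9.43 and 8.48 in T4 and 8.41, 8.06 and 8.72 in S1. CDKN1A had the same pattern. TUBA4A, an alpha-tubulin, was 10.14 with AIIB2, against 8.76 and 8.70, with 8.43 to 9.13 for the other agents and T4 at 10.10, 9.92 and 9.96. YWHAZ, a 14-3-3 protein, was 11.94 with AIIB2, against 10.62 and 10.60, and PD98059 was as low as the blockers at 10.68. The other samples had YWHAZ levels of at least 11.67, and 3 of its 4 other probe sets were on the same side, none past 1 log2 unit. KLF10, a factor induced by TGF-β, was 9.97 with AIIB2, against 8.84 and 8.83, and T4 had 11.35, 11.15 and 9.67. The rest of the higher genes, with gaps between 1.01 and 1.63, were TPD52L1, DYNLT3, AK1, S100P, DHRS1, SH3BGRL3, APRT, BEST2, GJB5, PRR15L, FAM162A, MLEC, SLCO3A1, ITM2C, TMBIM6, TIAM1, DEGS1, RABGGTA, CD58, PLPP2, OASL, TSPAN1, VSNL1, WNT4, EPAS1, GYG1, AGPAT2, RGS2, CST3, KCNK1, ITM2B and ACAA2.

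Most genes lower with AIIB2 were higher with the EGFR blockers than in T4. In 29 of the 47 the T4 mean, set across tables as deposited, lay at least 1 log2 unit below both blockers. No share over all genes was counted for this. GABRE, the epsilon subunit of the GABA-A receptor, was 7.91 with AIIB2, against 10.38 with the tyrphostin and 10.44 with mAb225, a gap of -2.47 or 5.56-fold. TNF protease inhibitor-2 and PD98059 had 10.28 and 10.34, the other 4 agents 7.89 to 8.63, T4 6.99, 7.29 and 7.25, and S1 7.89, 8.13 and 7.96. GABRE thus fell into 2 sets of samples, with the blockers, PD98059 and TNF protease inhibitor-2 high and AIIB2 with the rest. ULK2, a kinase that starts autophagy, was 7.44 with AIIB2, against 9.38 and 9.57 with the tyrphostin and mAb225, 9.32 with PD98059, 7.51, 7.61 and 7.25 in T4, and 7.50, 7.64 and 7.64 in S1. The chemokine CXCL14 was 7.46 with AIIB2, against 9.34 and 9.54, with 8.85 for PD98059 and 6.89, 6.95 and 6.69 in T4. In S1 it was 9.78, 9.77 and 6.67, sample 3 being the low one. SORL1, a sorting receptor, had 7.90 with AIIB2, against 9.55 and 9.33, 9.60 with PD98059, and 7.96, 8.14 and 8.33 in T4 and 9.56, 9.36 and 7.88 in S1. For these 4 genes PD98059 lay nearer the blockers and AIIB2 nearer T4.

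**Figure D4:**
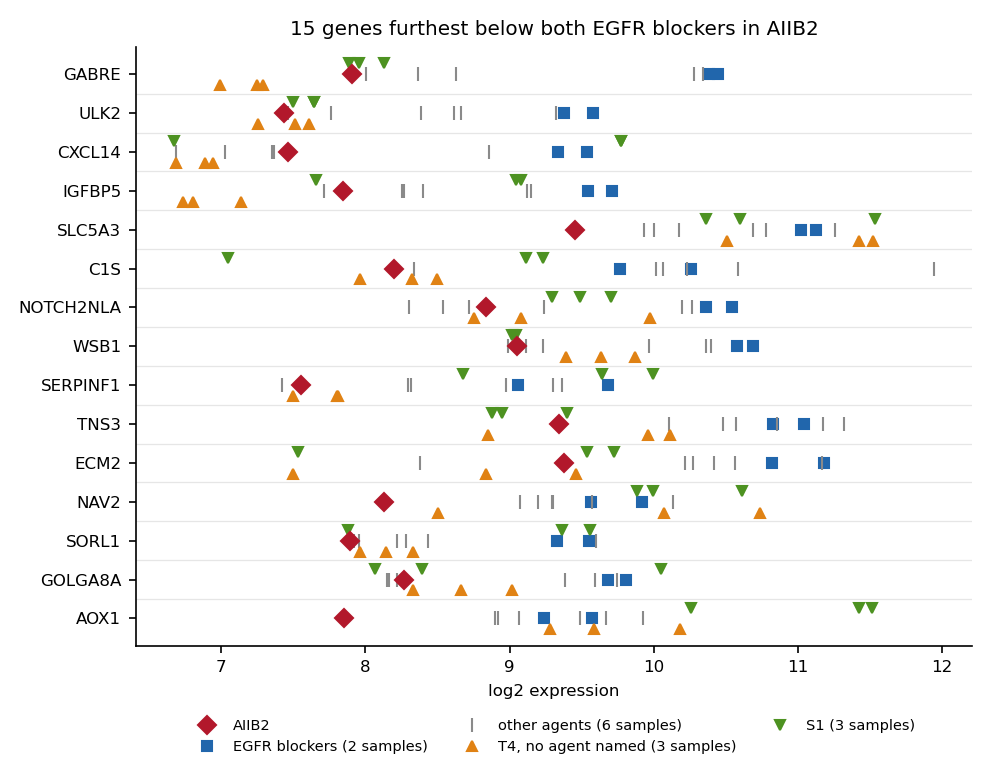
Log2 expression (horizontal axis) of the 15 genes with the largest gap below both EGFR blockers, with AIIB2 as red diamonds, the blockers as blue squares, the other 6 agents as grey ticks, T4 as orange triangles and S1 as green triangles. For most of them AIIB2 lies among or near the T4 values, and SLC5A3, NAV2 and AOX1 are exceptions with AIIB2 below every other sample.

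IGFBP5, which binds insulin-like growth factors, was 7.85 with AIIB2, against 9.54 with the tyrphostin and 9.71 with mAb225, and 7.71 to 9.14 with the other agents (median 8.33). T4 had 6.73, 7.14 and 6.80 IGFBP5 and S1 9.08, 9.05 and 7.66. All 4 other IGFBP5 probe sets were on the lower side, none by 1 log2 unit, and the mean over all was -0.44. SERPINF1, an antiangiogenic serpin, was 7.56 with AIIB2, against 9.06 and 9.68 with the blockers, and 7.81, 7.80 and 7.50 in T4 and 9.64, 9.99 and 8.68 in S1. ECM2, a matrix protein, was 9.38 with AIIB2, against 10.82 and 11.18, with 8.83, 9.46 and 7.50 in T4 and 9.54, 9.72 and 7.53 in S1. ASPN, encoded near it on chromosome 9, was 7.15 with AIIB2, against 8.32 and 9.29, and near 7 in T4 and S1. LTBP2, which binds fibrillin microfibrils, was 9.08 with AIIB2, against 10.37 and 10.48, and 8.75, 8.85 and 9.07 in T4 and 8.88, 8.69 and 8.70 in S1. None of the 20 basement membrane and matrix genes measured met the rule, but 13 lay below both blockers and 2 above both, with a median difference of -0.21. The nearest were agrin (AGRN) with a gap of -0.97 and the laminin chains LAMB1 with -0.74 and LAMC1 with -0.70.

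The C1 proteases of complement were lower together. C1S was 8.20 with AIIB2, against 9.76 with the tyrphostin and 10.26 with mAb225, and 8.34 to 11.94 with the other agents (median 10.15). T4 had 8.49, 8.33 and 7.96 C1S and S1 9.12, 9.23 and 7.04. C1R, which activates C1S, was 8.91 with AIIB2, against 10.09 and 10.37, with 9.01, 8.97 and 7.57 in T4 and 9.89, 9.86 and 7.40 in S1. C1RL, a related protease gene beside them on chromosome 12, was 8.01 with AIIB2, against 9.04 and 9.34. Of 12 complement and acute phase genes measured, C1S and C1R were the 2 that met the rule, where 0.516% of all genes were lower, and 0 were higher. C3, the central complement protein, had a gap of -0.44.

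Of 13 YAP and TEAD targets 3 were lower with AIIB2 and 0 higher, where the background of lower genes was 0.516%. AMOTL2, an angiomotin that binds YAP, was 8.17 with AIIB2, against 9.55 with the tyrphostin and 9.68 with mAb225. The other agents had 8.81 to 9.75 AMOTL2 (median 9.15), T4 8.56, 8.65 and 8.60, and S1 8.30, 8.12 and 9.26. FJX1, the human four-jointed gene, was 9.34 with AIIB2, against 10.45 and 10.71, with 10.47, 10.46 and 10.12 in T4 and 8.87, 8.48 and 9.20 in S1. CRIM1, a transmembrane regulator of bone morphogenetic proteins, was 9.13 with AIIB2, against 10.15 and 10.29, and the mean of its probe sets gave -0.91. The most used targets of the list did not share this: CCN1 and CCN2 had gaps of 0.06 and -0.03, and the list's median difference was -0.07.

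TNS3, a tensin that links integrin tails to actin, was 9.35 with AIIB2, against 10.83 with the tyrphostin and 11.04 with mAb225, 10.11 to 11.32 with the other agents (median 10.71), and 9.96, 10.11 and 8.85 in T4 and 8.94, 8.88 and 9.40 in S1. It was the lowest of the 9 agents. PTK2B, the kinase PYK2 related to focal adhesion kinase, was 8.14 with AIIB2, against 9.34 and 9.72, with 7.79, 8.09 and 7.45 in T4 and 8.15, 8.09 and 8.13 in S1, and the mean of both probe sets gave -0.86. It was the 1 gene of 25 focal adhesion components that met the rule, and that list's median difference was 0.01.

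Several further lower genes were also high with PD98059 and TNF protease inhibitor-2. NOTCH2NLA, a NOTCH2-derived gene with near-identical copies and therefore uncertain, was 8.83 with AIIB2, against 10.54 and 10.36 with the tyrphostin and mAb225, and 8.30 to 10.26 with the other agents. T4 had 9.08, 8.75 and 9.97 NOTCH2NLA and S1 9.29, 9.49 and 9.70. WSB1, a substrate receptor of a ubiquitin ligase, was 9.05 with AIIB2, against 10.57 and 10.69, and 9.63, 9.39 and 9.87 in T4 and 9.03, 9.05 and 9.02 in S1, and the mean of its 4 probe sets gave -0.93. GOLGA8A, a golgin of a multicopy family and likewise uncertain, was 8.27 with AIIB2, against 9.81 and 9.68, with 8.66, 8.33 and 9.02 in T4 and 8.07, 8.39 and 10.05 in S1. In these 3 genes AIIB2 was close to the 3 agents of the other table, GM6001, LY294002 and the inhibitor of MMPs and ADAMs. The fitted difference between tables, second minus first, was 1.12 for NOTCH2NLA, 0.79 for WSB1 and 1.38 for GOLGA8A. Dominant-negative Rap1, of the second table, had 9.24, 10.40 and 9.38. Closeness to agents of the first table therefore cannot be told apart from the difference between tables. SLC5A3, a myo-inositol transporter, was 9.45 with AIIB2, against 11.02 and 11.12, and below all 14 other samples, with 11.52, 11.42 and 10.51 in T4 and 10.60, 10.36 and 11.53 in S1. NAV2, a cytoskeletal protein gene, was 8.13 with AIIB2, against 9.56 and 9.92, with 10.74, 10.07 and 8.50 in T4 and 9.88 to 10.61 in S1. AOX1, an aldehyde oxidase, was 7.85 with AIIB2, against 9.24 and 9.57, 8.90 to 9.92 with the other agents (median 9.28), 10.18, 9.59 and 9.28 in T4 and 11.51, 11.42 and 10.26 in S1. For NAV2 and AOX1, too, AIIB2 was lower than any other sample. TNFAIP3, an inhibitor of NF-κB signalling, was 9.94 with AIIB2, against 10.94 and 11.21, with 9.82 for TNF protease inhibitor-2, and the mean of its probe sets gave -0.89.

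The remaining lower genes had gaps of -1.01 to -1.38. FOXO3, a forkhead factor that AKT keeps out of the nucleus, was 10.19 with AIIB2, against 11.33 with the tyrphostin and 11.50 with mAb225, with 11.01, 10.89 and 9.28 in T4 and 11.43, 11.28 and 10.30 in S1. Of 15 FOXO targets, 0 met the rule, 9 lay below both blockers and 5 above both, with a median difference of -0.28. JAG2, a Notch ligand, was 8.53 with AIIB2, against 9.74 and 9.84, with 8.52, 8.84 and 8.10 in T4 and 9.06, 9.04 and 9.31 in S1. FAT2, a giant protocadherin of epithelia, was 9.51 with AIIB2, against 10.68 and 10.70, with 10.65 for PD98059, 8.52, 8.61 and 8.81 in T4 and 8.53, 8.15 and 8.90 in S1. MATN2, a matrilin of the matrix, was 9.59 with AIIB2, against 10.64 and 10.60, and 9.50 to 10.58 with the other agents. T4 had only 7.67, 7.97 and 7.16 MATN2 and S1 7.63, 7.63 and 6.89, so all 9 agents were above both lines and AIIB2 was among the lowest of them. NFAT5, the factor of the hypertonic response that is known to drive SLC5A3, was 7.98 with AIIB2, against 9.28 and 9.19, and 8.31, 8.22 and 8.52 in T4. SRRM2, a large spliceosome protein, was 9.71 with AIIB2, against 11.09 and 11.09, and both of its other probe sets were on the lower side. The others were TNNI2, ANKRD36B, EFEMP1, TCF4, NKTR, DAAM1, PCDH9, ZDHHC11, TRIM22, DKFZP586I1420, OGT, USP32P2, WLS, SHLD2, CERS6 and ZNF721.

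The transcripts of the targeted receptors themselves did not meet the rule. ITGB1, which encodes β1-integrin, was 12.53 with AIIB2, against 12.77 with the tyrphostin and 12.80 with mAb225. It was 12.54 to 12.74 with the other agents, 12.71, 12.72 and 12.68 in T4 and 12.66, 12.84 and 12.41 in S1, so all samples lay within less than 1 log2 unit. EGFR was 12.17 with AIIB2, against 13.11 and 12.96 with the blockers, and 12.40 to 13.46 with the other agents. T4 had 12.87, 13.05 and 11.62 EGFR, the third being low, and S1 11.68, 11.23 and 12.59. In the probe sets shown, AIIB2 was the lowest of the 9 agents for both receptors, for ITGB1 by less than the spread within S1. The mean over all probe sets of each gene gave gaps of -0.06 for ITGB1 and -0.22 for EGFR. ERBB2, the partner receptor of EGFR, had a gap of -0.63, and none of the 10 genes of EGFR ligands, receptors and inhibitors measured met the rule.

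Among the alpha subunits that pair with β1, ITGA6, the laminin receptor subunit that also pairs with β4, was 10.90 with AIIB2, against 10.04 with the tyrphostin and 10.12 with mAb225. The mean of its probe sets gave a gap of 0.52. T4 had more ITGA6, 12.02, 12.02 and 12.39, and S1 10.17, 9.71 and 11.03. The β4 partner ITGB4 went the opposite way with a gap of -0.71. ITGA2 and ITGA3, of collagen and laminin receptors, had gaps of 0.21 and -0.19, the fibronectin receptor subunit ITGA5 had 0.17, ITGAV 0.04, ITGA7 -0.20 and ITGA10 -0.13. ITGA2 and ITGA5 lay below every T4 sample with all 9 agents. ITGA2 was 7.49 with AIIB2, against 7.28 and 7.24 with the blockers. It was 7.31 to 7.64 with the other agents and 9.04, 8.74 and 9.46 in T4. ITGA5 was 7.69 with AIIB2, against 7.53 and 7.49 with the blockers. It was 7.27 to 8.17 with the other agents and 9.60, 9.02 and 10.27 in T4. ITGA4, ITGA8 and ITGA9 were under the brightness filter, with gaps between -0.05 and 0.10. The focal adhesion kinase PTK2 was 9.62 with AIIB2, against 10.29 and 10.62, and 10.89, 10.74 and 10.01 in T4. ILK, the integrin-linked kinase, was 9.34 with AIIB2, against 9.15 and 9.11. In all, 0 of 14 integrin subunits met the rule and their differences ran from -0.83 to 0.82.

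**Figure D5:**
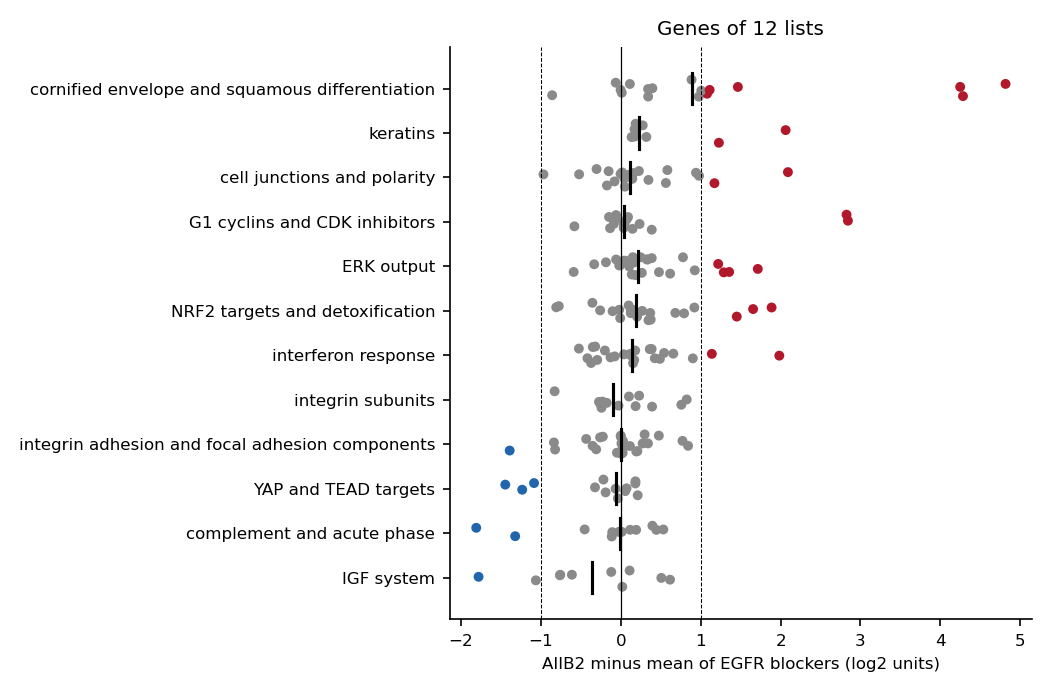
AIIB2 minus the mean of the EGFR blockers in log2 units (horizontal axis) for the genes of 12 lists, 1 point per gene above the filter, with a black bar at each list's median. Red and blue points met the rule against both blockers. The cornified envelope list has the highest median, 0.89, while integrin subunits stay between -0.83 and 0.82.

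Broad metabolic lists moved little, gene by gene, but mostly to one side. Of 30 genes of oxidative phosphorylation 0 met the rule, 26 lay above both blockers and 2 below both, with a median difference of 0.33 and a maximum of 0.58. Glycolysis was similar, with 15 of 20 above both and a median of 0.29, and 13 of 16 heat shock genes were above both with a median of 0.22. Over all genes 3663 lay above both blockers and 3780 below both. Ribosomal proteins had 2 of 31 above both and 17 below both, with a median of -0.08. No gene of these 4 lists met the rule.

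Set beside the other agents, AIIB2 stood apart in a larger share of the higher than of the lower genes. It was at least 1 log2 unit above all 5 other agents of the table in 37 of the 79 higher genes (0.406% of genes tested) and above all 8 agents of both tables in 29. Of the 47 lower genes, AIIB2 was below all 5 in 8 (0.0878%) and below all 8 in 2, AOX1 and NNMT, the nicotinamide methyltransferase. NNMT, named for this count, was 8.52 with AIIB2, against 9.90 and 10.24 with the tyrphostin and mAb225, and 8.41 in T4 sample 3, against 10.95 and 10.97 in T4 samples 1 and 2. Both blockers are among the 5 and the 8 agents, so any gene counted here is a higher or lower gene by the rule. The shares of 0.406% and 0.0878% are these same genes over all genes tested and give no background. The counts against all 8 agents have no share over all genes beside them.

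Against T4, 27 higher genes had AIIB2 at least 1 log2 unit above all 3 T4 samples, 50 lay within 1 log2 unit of the T4 range and 2, FGFBP1 and IER3, lay below it. Of all genes, 1.12% were that far above T4 with AIIB2 and 1.31% that far below. The higher and lower genes were picked for an outlying AIIB2 value, so their counts are not comparable with these shares. For 28 higher genes the T4 mean was itself at least 1 log2 unit above both blockers, with no share over all genes counted. The lower genes were closer to T4, with 44 of 47 within 1 log2 unit of its range, 2 below it, SLC5A3 and AOX1, and 1, MATN2, above it. The count below T4 was 7 once T4 was shifted by the fitted difference between tables and 6 without T4 sample 3. The fit took all agents as 1 group although the tables hold different agents, so that difference also carries differences between agents. AIIB2 lay nearer the T4 mean than the blockers did in 40 of 47 lower and 32 of 79 higher genes, where 58.5% of all genes did. After the shift the counts were 32 and 39, with 49.7% of all genes, so the contrast between higher and lower genes depends in part on how the tables are joined. These counts reuse the AIIB2 and blocker values that picked the genes, so no conclusion is drawn from the shares beside them. Within the first table, T4 exceeded S1 by at least 1 log2 unit in 16 of the higher genes and was below S1 in 10, against 4.83% and 3.83% of all genes. Among the lower genes the counts were 3 and 11.

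Against S1, AIIB2 lay nearer S1 sample 3, of the same table, than the blockers did in 18 of 79 higher genes and 29 of 47 lower genes, where 47.2% of all genes did. With S1 samples 1 and 2 in its place the counts were 29 and 28, and the background 51.7%. AIIB2 was at least 1 log2 unit above the S1 range in 33 higher genes, and outside both the T4 and the S1 ranges in 17 of the 79 higher and 1 of the 47 lower genes. These genes were picked for an outlying AIIB2 value against the blockers, so their counts are not comparable with the shares of all genes. No share over all genes was counted for the S1 and joint ranges.

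Members encoded within 1 Mb of each other in the RefSeq annotation usually shared their direction, though no rate for random pairs was computed. Such neighbours were SPRR1A, SPRR1B and S100A8 on chromosome 1, CLDN1 and P3H2 on chromosome 3, and AKR1C1, AKR1C2 and CALML3 on chromosome 10. Others were CDKN1C and PHLDA2 on chromosome 11, DSC2 and DSG1 on chromosome 18 and KRT10 and KRT16 on chromosome 17. On chromosome 12 they were C1S, C1R and C1RL, and also MLEC and OASL. Further pairs were ASPN and ECM2 on chromosome 9, RABGGTA and DHRS1 on chromosome 14 and BEST2 and IER2 on chromosome 19. Opposite directions were found for FOS and LTBP2 on chromosome 14 and for NQO1 and NFAT5 on chromosome 16. PHLDA2, an imprinted gene like its neighbour CDKN1C, was 10.09 with AIIB2, against 8.30 and 8.45 with the tyrphostin and mAb225, and 10.78, 10.87 and 11.56 in T4 and 7.56, 7.87 and 8.22 in S1. Gene families such as SPRR1 and AKR1C share sequence as well as position, so their members are not independent measurements.

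Other probe sets of the same genes mostly lay on the same side with smaller gaps. For 39 higher genes there were 63 other probe sets, of which 58 were on the same side, 24 past 1 log2 unit and 3 on the opposite side. For 20 lower genes there were 41, of which 38 were on the same side, 6 past 1 log2 unit and 1 opposite. None was past 1 log2 unit in the opposite direction. Both blockers lay under their sample medians for 13 of the higher genes, where a fold is a comparison with values that may be background.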

How the data were processed

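Per the labels, total RNA of 15 HMT3522 cultures was hybridised to U133A arrays. The authors deposited log2 values in 2 tables; how these were summarised and normalized, and whether jointly, is not given in the sources used here. Detection calls were not used, and precision is limited by how few arrays there are. Of 22215 probe sets, 19707 had 1 gene in the platform annotation, and 19689 symbols were updated through RefSeq. For each of 12149 genes the brightest probe set on average was used, and the dimmest 25% were left out. Brightness was the mean over all 15 samples, AIIB2 included, so a gene high with AIIB2 alone passed more easily. Nothing was tested, since AIIB2 has 1 sample; the counting rule was checked on simulated data. The genes and the 39 lists were chosen with earlier results of these data known. Named by rule were the 15 largest gaps each way, up to 4 members per list, ITGB1, EGFR, alpha subunits that pair with ITGB1, PTK2, ILK and MKI67; other genes, including those short of the threshold, were chosen after their values were seen. Alternatives covered probe sets, filter, scaling, threshold and comparison samples. The table term came from limma 3.58.1 in R 4.3.3, with S1, T4 and reverted T4 as groups. All agents formed 1 group and the tables hold different agents, so the term also carries differences between agents. The rest used Python 3.11.15 with pandas 2.3.3.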

Additional observations from a re-analysis of the deposited data

How the results depend on the processing

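The count of 79 genes above and 47 below both EGFR blockers stayed within 1.5 times under other probe-set choices, filters, scalings and single blockers, between 60 and 103 for the higher and between 33 and 70 for the lower genes. It changed with the threshold, to 23 and 9 genes at 1.5 log2 units and to 260 and 257 at 1.5-fold, and to 37 and 8 genes when AIIB2 had to lie outside all 5 other agents of the table; these settings are stricter or looser by construction. Higher genes with AIIB2 nearer S1 numbered 29 with S1 samples 1 and 2 and 18 with S1 sample 3, and the cause was not tested. Lower genes with AIIB2 at least 1 log2 unit below all T4 samples numbered 7 with T4 shifted by the table term and 2 without the shift. Leaving out 1 T4 sample at a time gave 2 to 6 of these, and 28 to 30 higher genes above T4, both chosen after seeing the data. It gave 31 to 34 higher and 37 to 40 lower genes nearer T4. Single genes were recomputed only where the naming rule picked them, and of those 55 genes past the threshold, 53 kept their gap past 1 log2 unit after quantile normalization and 44 with the mean of all probe sets, and none reversed. No paired analysis was possible because no result comes from a test. The arrays give no detection calls here, so folds over values near the sample medians are limited by an unknown background.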
